A study of Homo sapiens with 24 samples.

Results

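HOX cluster genes were taken as every gene of the deposited files whose symbol is HOXA, HOXB, HOXC or HOXD followed by a number alone. This rule found 39 of 58051 gene identifiers. Of these, 38 are described here and counted as members, 10 in the HOXA, 10 in the HOXB, 9 in the HOXC and 9 in the HOXD cluster. They were followed in HT29, HCT116 and SW480, 3 established human colorectal cancer cell lines, after loss of β-CATENIN, the transcriptional effector of the WNT pathway encoded by *CTNNB1*. The KO clones carry a biallelic deletion of *CTNNB1* exon 7 that was made with CRISPR/Cas9 and shifts the reading frame, whereas the WT clones retain the gene. Each genotype of a line was represented by a pair of clones: WT 11 and WT 40 with KO 28 and KO 38 in HT29, WT 4 and WT 6 with KO 44 and KO 47 in HCT116, and WT 4 and WT 5 with KO 17 and KO 21 in SW480. Each of the 12 clones was sequenced in rounds A and B, which gave 24 libraries. The letter of the round follows the number of the clone, so that KO 28A is round A of KO 28. With 2 single-cell clones per genotype, a difference between genotypes and a difference between clones are hard to separate. All cells were grown in the same medium with fetal calf serum and received no further treatment.

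HOX genes encode transcription factors with a homeodomain, the DNA-binding fold that defines the family. They lie in 4 clusters in which the order of genes along the chromosome follows the order of their expression along the body axis, from anterior (low numbers) to posterior (high numbers), and genes with the same number in different clusters are paralogs. In the gut the posterior genes mark the colon and rectum, and WNT signals and the caudal factor CDX2 act upstream of HOX genes in the embryo.

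In short, the effect of the knock-out on HOX genes differed in place and direction between the lines. In SW480, 5 of 32 tested members fell, 4 of them in the HOXB cluster, against 6.76% of all tested genes. *HOXB2* fell most, from a mean normalized count of 663 to 99.3. HCT116 showed a rise of *HOXA2* and *HOXA3*, 2 of 25 tested members, against 3.17% of all tested genes. *HOXA3* went from 42.5 to 305. *HOXA2* was low in both genotypes and passed the filter for testing only through the KO libraries. Its rise no longer met the thresholds without 1 of the WT clones. In HT29 only *HOXD13* fell, 1 of 24 tested members, against 0.402% of all tested genes. It had reads in all 4 WT libraries and none in the 4 KO libraries, and it passed the filter for testing only through the WT libraries. With the rounds of a clone averaged, no gene of HT29 met the thresholds, *HOXD13* included. Several members differed between clones of the same genotype by as much or more.

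Values are gene counts divided by the DESeq2 size factor of the library, called normalized counts here. Reads on genes ran from 22297049 to 29068378 per library. The members together held between 6952 and 10111 reads in HCT116 and between 10559 and 25814 in the other lines. *CTNNB1* itself went from 6021 to 300 in HT29, from 11918 to 218 in HCT116 and from 46967 to 1024 in SW480, and it was lower in the KO than in the WT libraries in every case. Of 7 epithelial markers, *EPCAM*, *KRT8*, *KRT18* and *KRT19* had normalized counts of at least 645 in every library, whereas *CDH1* had a mean of 55.6 in SW480 WT, and *VIL1* one of 17.8 there and of 3.03 in HCT116 WT. *KRT19* rose in HT29 and *CDH1* in HCT116. The intestinal factor *CDX2*, however, had a mean of only 5.06 in HT29 WT, against 608 in HCT116 WT and 1097 in SW480 WT. The summed level of 6 markers of leukocytes, fibroblasts and endothelium ran from 13.2 to 442 over the 24 libraries. Only 1 of the 6 was tested in HT29, 2 in HCT116 and 1 in SW480, and none of those tested was called. In bulk RNA, fewer cells that express a gene cannot be told apart from less RNA per cell.

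Tested genes had a value of 10 or more in 4 or more of the 8 libraries of a line. A gene was called changed at a Benjamini-Hochberg adjusted p under 0.05 in limma and an absolute log2 fold change over 1 on the scale of log2(value + 1), and rose and fell are used for such genes. By this filter 24 of the 38 members were tested in HT29, 25 in HCT116 and 32 in SW480. *HOXD13* in HT29 and *HOXA2* in HCT116 passed it through 1 genotype only.

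Promoters are shown for members that the results turn on and that have an entry in the promoter table of RefSeq (GRCh38.p14), which matched 20 of the 38 members with 26 distinct windows of 300 bases, from 250 before to 50 after a transcript start. *HOXA2* rose in HCT116, *HOXD13* fell in HT29, and *HOXA11* differed between the KO clones of SW480 but was not called in KO against WT. The members that fell in SW480, *HOXB2*, *HOXB5*, *HOXB8*, *HOXB9* and *HOXD9*, have no entry, so their promoters could not be searched. Capitals mark matches to CTTTGAT or CTTTGAA, the letters bound by TCF/LEF factors, and to TGATNNAT, a site type of PBX and HOX factors bound together, on either strand.
HOXA2, chr7:27102634-27102933, minus strand: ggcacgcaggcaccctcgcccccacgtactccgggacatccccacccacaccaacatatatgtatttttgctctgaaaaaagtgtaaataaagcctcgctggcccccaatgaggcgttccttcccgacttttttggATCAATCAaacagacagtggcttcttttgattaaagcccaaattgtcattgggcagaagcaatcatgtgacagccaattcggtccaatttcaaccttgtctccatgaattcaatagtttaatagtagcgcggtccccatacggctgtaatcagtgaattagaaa
HOXD13, chr2:176092471-176092770, plus strand: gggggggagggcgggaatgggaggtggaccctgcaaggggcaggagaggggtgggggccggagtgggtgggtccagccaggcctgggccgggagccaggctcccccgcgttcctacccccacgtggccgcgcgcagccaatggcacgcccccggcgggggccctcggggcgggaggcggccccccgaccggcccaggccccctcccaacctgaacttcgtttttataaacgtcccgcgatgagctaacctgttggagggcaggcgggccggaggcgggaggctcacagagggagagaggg
HOXA11, chr7:27185183-27185482, minus strand: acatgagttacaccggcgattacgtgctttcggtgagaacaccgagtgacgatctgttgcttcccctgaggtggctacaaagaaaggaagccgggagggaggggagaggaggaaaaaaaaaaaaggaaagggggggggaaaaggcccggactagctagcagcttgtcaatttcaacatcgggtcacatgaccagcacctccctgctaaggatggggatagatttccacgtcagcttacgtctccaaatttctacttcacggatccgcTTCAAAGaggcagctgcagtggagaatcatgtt
The *HOXA2* window held 1 match to TGATNNAT, at position −114 from the start. The *HOXA11* window held 1 match to a TCF/LEF word, at position 18 after the start, and no match was found in the *HOXD13* window. Nor did the 7 windows of *HOXA3* hold one. The windows of *HOXA6*, *HOXA7*, *HOXA9* and *HOXA10*, which also differed between the KO clones of SW480, held none either. Of the 26 windows, 3 held a TCF/LEF word, those of *HOXA11*, *HOXB1* and *HOXD12*, which is 11.5% against 6.88% of all 34943 distinct windows of the table. For TGATNNAT these were 3 windows as well, those of *HOXA2*, *HOXB1* and *HOXD11*, against 7.42% of all. *HOXC4* and *HOXC5* share 1 window.

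The lines differed in which clusters they used. HOXB genes made up between 57.5% and 67.7% of the summed signal of the members in HT29 WT, between 40.62% and 56.9% in HCT116 WT and between 69.1% and 71.4% in SW480 WT. The HOXD cluster held at most 0.322% of it in HT29 WT and at most 2.36% in HCT116 WT, but between 3.75% and 4.62% in SW480 WT. In HT29, 6 of the 9 HOXD genes stayed at 3 reads or fewer in all 8 libraries, and *HOXD3*, *HOXD4*, *HOXD10* and *HOXD11* had no read at all. The same held for 6 HOXD genes in HCT116 and for 1, *HOXD4*, in SW480. For such genes a change was not detectable at this depth. *HOXC10*, by contrast, had a mean of 615 in SW480 WT, against 33.4 in HCT116 WT and 3.55 in HT29 WT.

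Per kilobase of exon, which allows genes to be compared, *HOXB9* was highest in HT29 WT with 2564 normalized counts per kb, followed by *HOXB7* with 1256. *HOXB7* led in HCT116 WT with 1033 per kb, ahead of *HOXA9* with 619. In SW480 WT the order was *HOXB8* with 1908 per kb and *HOXB7* with 1615. Before division by exon length, the normalized counts of these pairs did not overlap in range, except in HCT116. There *HOXB7* ran from 1343 to 1798 and the longer *HOXA9* from 1754 to 2032, so that *HOXB7* led only per kilobase.

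The member with the highest mean over all libraries was *HOXA9* in the HOXA, *HOXB9* in the HOXB, *HOXC6* in the HOXC and *HOXD8* in the HOXD cluster. This order pools lines, and within a line other members could be higher, such as *HOXB8* in SW480 WT with a mean of 4587 against 1527 for *HOXB9*. *HOXB9*, a posterior gene, had normalized counts of 6247, 8496, 5839.7 and 5939 in HT29 WT 11A, 11B, 40A and 40B. The values of KO 28A, 28B, 38A and 38B were 5214, 5713, 6818 and 5943, within the WT range or below it, and the gene was not called (log2 fold change −0.15, SE 0.17). In HCT116 it had 472, 373, 722 and 659.7 in WT 4A, 4B, 6A and 6B and 345, 317, 371 and 378 in KO 44A, 44B, 47A and 47B, so that the genotypes nearly separated (adjusted p = 0.0601 in limma).

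*HOXA9*, known for its role in blood stem cells and leukemia, had 1457, 1716, 934 and 864 in the HT29 WT libraries in the same order, and 1093, 1120.4, 571 and 1360.0 in the KO libraries. In HCT116 its values were 1889.8, 1754, 1833 and 2032 in WT and 1904, 1961, 2692 and 2901 in KO, with KO 47 above the rest. *HOXC6* had 140.2, 145, 158 and 164 in HT29 WT and 214, 171, 205 and 224 in KO. It was the only tested member of HT29 with every KO library above every WT library, at a log2 fold change of 0.42 (SE 0.19, adjusted p = 0.314 in limma). In HCT116 *HOXC6* had 83.5, 107, 91.5 and 122 in WT and 106, 92.3, 116 and 133 in KO. In SW480 it had 308, 387, 458 and 393 in WT and 360.2, 366, 403 and 387 in KO, and the genotypes overlapped in both lines.

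**Figure D1:**
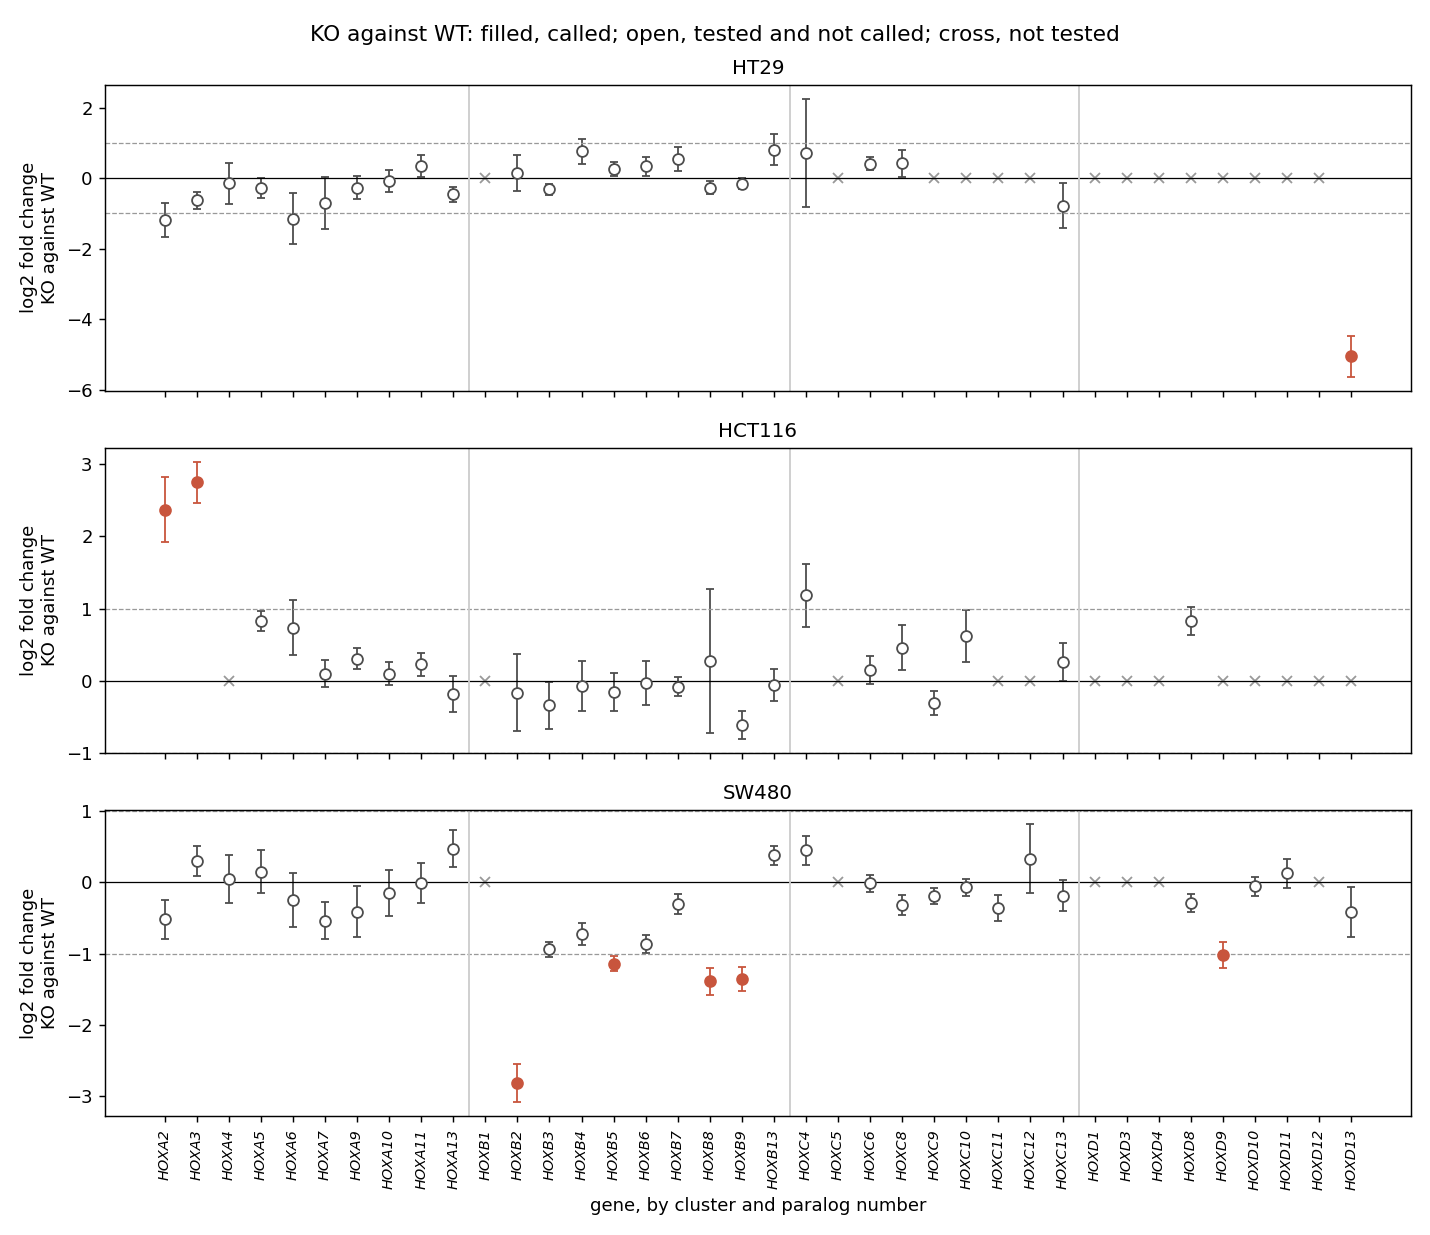
Log2 fold change of KO against WT on the log2(value + 1) scale (points) with its standard error (bars) for each member in HT29, HCT116 and SW480, with a y axis of its own for each line; filled red points were called, open points were tested and not called, crosses at 0 were not tested, and dashed lines mark −1 and 1. Called members are *HOXA2* and *HOXA3* in HCT116, *HOXD13* in HT29 and, in SW480, *HOXD9* and 4 members of HOXB.

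In SW480, 5 of the 32 tested members fell and none rose. The members called lower were *HOXB2*, *HOXB5*, *HOXB8*, *HOXB9* and *HOXD9*, and 6.76% of the 16325 tested genes were called lower against 10.7% called higher. No member was called higher in limma, in DESeq2 or in edgeR. In either direction, 12 of the 32 members had an unadjusted p under 0.05 in limma, as did 8905 of the 16325 genes. Every KO library was below every WT library for 9 members, which 20.9% of all tested genes showed, and above for 1 member, which 25.3% showed. The median log2 fold change was −0.27 over the tested members and −0.0042 over all tested genes.

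The HOXB cluster lies at chr17:46605888-46806112 in GRCh37 on the minus strand, with *HOXB1* to *HOXB9* next to each other and *HOXB13* apart. Of its 9 tested members 4 fell, and the KO libraries were below the WT libraries for 7, from *HOXB2* to *HOXB9* with the exception of *HOXB7*. *HOXB2*, an anterior gene with a known part in patterning of the hindbrain, had normalized counts of 759, 710.3, 624 and 559 in WT 4A, 4B, 5A and 5B. In KO 17A, 17B, 21A and 21B it had 63.0, 65.1, 121 and 148, so that the highest KO library was below the lowest WT library by a wide margin. The log2 fold change was −2.81 (SE 0.27, adjusted p = 1.53e-05 in limma), a 6.67-fold lower mean. With the rounds of a clone averaged, so that 2 clones were compared with 2, the adjusted p was 0.00514 in limma.

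*HOXB8*, which is active in myeloid cells and in the embryonic trunk, was the most abundant member in SW480 WT, with values of 4419, 4354, 4671 and 4903. KO 17 had 1382 and 1323 and KO 21 had 2521 and 2019.9, so that both KO clones were low and KO 17 lower (log2 fold change −1.39, SE 0.19). *HOXB9* went from 1208, 1515, 1514 and 1870.3 in WT to 499, 476, 692 and 726 in KO (−1.36, SE 0.17). *HOXB5* had 1559.5, 1230.4, 1295 and 1259.6 in WT and 530.5, 569.7, 669 and 649 in KO (−1.14, SE 0.10). For these 3 genes the adjusted p ran from 8.64e-06 to 0.000178 in limma, and the means were lower by 2.21-fold to 2.55-fold. With the rounds of a clone averaged, the adjusted p ran from 0.0044 to 0.0143 in limma.

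The other members of the cluster showed smaller differences. *HOXB3*, *HOXB4* and *HOXB6* had log2 fold changes of −0.94, −0.73 and −0.87 with adjusted p of 4.54e-05, 0.00365 and 0.000266 in limma, under the size needed for a call. *HOXB7*, between them and *HOXB8*, overlapped, with 2301 to 2634 in WT and 1543 to 2417 in KO. *HOXB13*, a gene of the hindgut and prostate that lies apart from the rest of the cluster, differed in the other direction. It had 126, 134, 141 and 125 in WT and 154, 156, 212 and 168 in KO (0.38, SE 0.14, adjusted p = 0.0408 in limma), also under the size of a call. Reads could not be assigned by strand, and 32.9% of the exon bases of *HOXB6* and 11.7% of those of *HOXB3* overlap other genes, among them each other.

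Outside the HOXB cluster, *HOXD9* fell in SW480. *HOXD9* had 190.0, 219, 178 and 151 in WT and 83.7, 78.0, 123 and 78.7 in KO (−1.03, SE 0.18, adjusted p = 0.001 in limma). With the rounds of a clone averaged, its adjusted p was 0.0273 in limma. Its fold change was close to the limit, and without WT 4B, KO 17A, KO 17B or KO 21B it came to −0.94, −0.99, −0.96 and −0.97 and was no longer called. *HOXD8* also had its KO libraries below all WT libraries, with 291, 319, 274 and 320.0 in WT and 265, 198, 271 and 254 in KO, at a log2 fold change of −0.29 (adjusted p = 0.0753 in limma). None of the 8 tested HOXC members was called in SW480. With the fits of DESeq2 and edgeR all 5 genes were called lower too, and DESeq2 added *HOXC5*, whose values of 6.06 to 11.0 in WT and 0 to 2.80 in KO were below the filter.

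**Figure D2:**
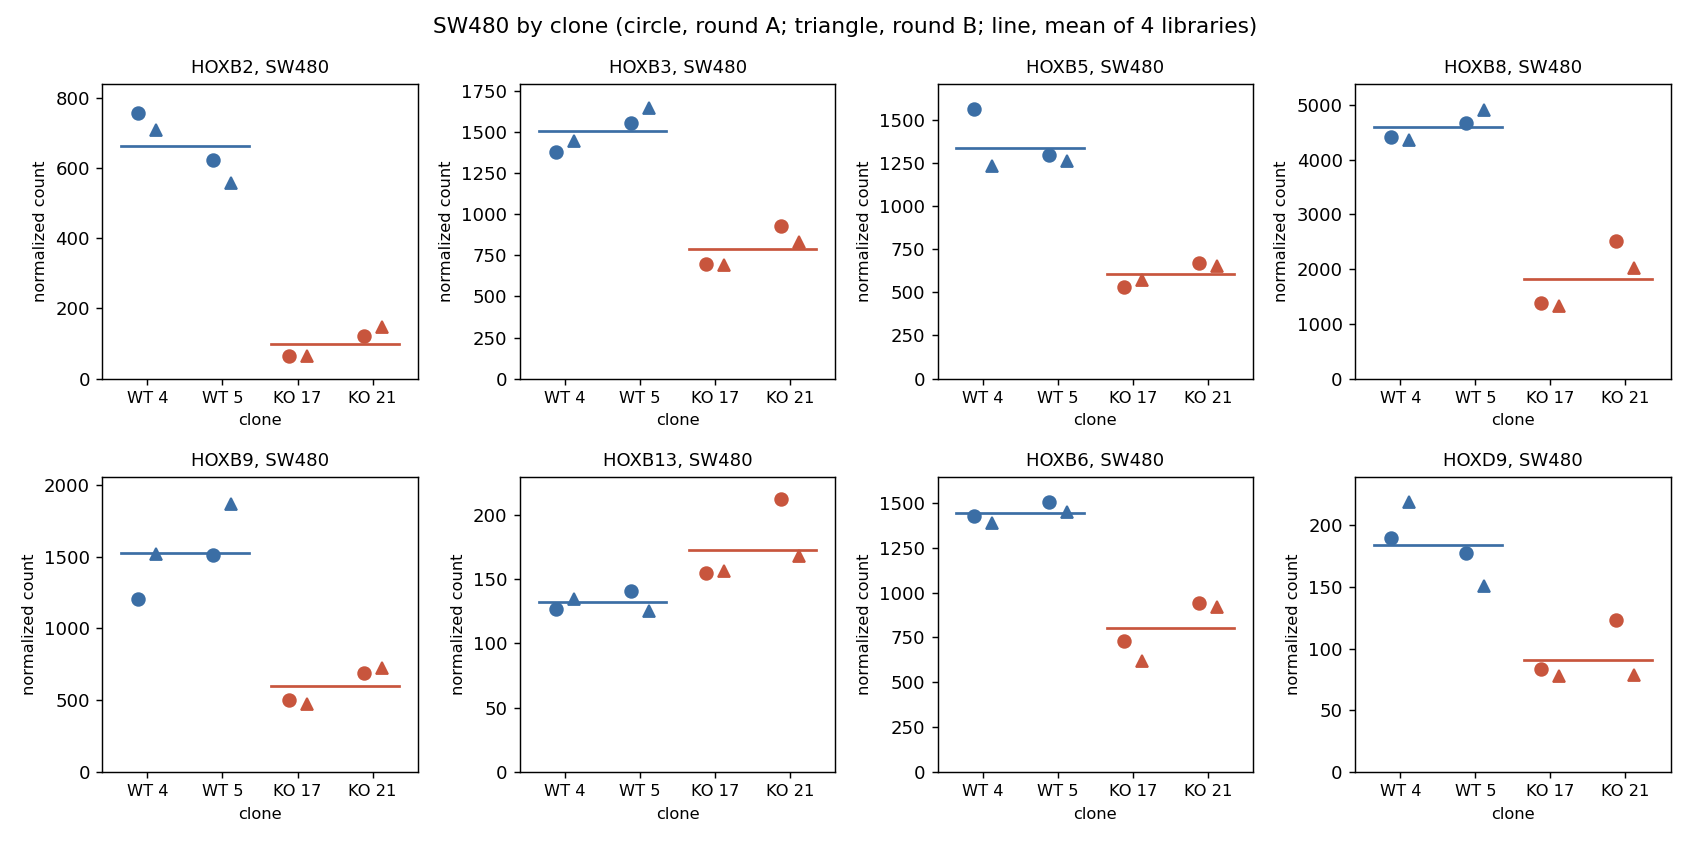
Normalized counts per library (y axis, from 0) of 8 members in the 2 WT (blue) and 2 KO (red) clones of SW480; circles are round A, triangles round B, and lines the mean of the 4 libraries of a genotype. The KO points of *HOXB2*, *HOXB3*, *HOXB5*, *HOXB6*, *HOXB8*, *HOXB9* and *HOXD9* lie below all WT points, and those of *HOXB13* above.

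Neighbours of the HOXB cluster and known HOX regulators were examined in SW480 as lists. *HOXB-AS3*, a noncoding RNA that runs antisense through the cluster, fell from 1251 ± 99.3 to 516 ± 140.1 (SD, n = 4 and 4; −1.31, adjusted p = 0.000137 in limma). It was the only one of 18 tested cluster noncoding RNAs that was called. Of 17 tested flanking genes of the 4 clusters, *SKAP1*, 98.3 kb from the HOXB cluster and coding for an adaptor of immune receptors, fell from 1201 to 193 (−2.61). On the other side of this cluster *TTLL6*, at 33.5 kb and coding for a tubulin-modifying enzyme, rose from 5.21 to 75.8, and it passed the filter only through the KO libraries. *CALCOCO2*, at 102 kb and coding for an autophagy receptor, rose from 1382 to 3080 (1.15). The 14 others were not called.

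*CDX2*, a caudal factor that acts upstream of HOX genes in the embryo, fell from 857 to 1333 in SW480 WT to 52.7 to 165 in KO (−3.49, SE 0.36, adjusted p = 3.83e-05 in limma). In HCT116 it had 525 to 697 in WT and 421 to 478.5 in KO and was not called, and in HT29 it stayed at or under 19.9 and was not tested. The part of *CDX2* in the levels of HOX genes was not tested. Among 7 tested cofactors of the PBX, MEIS and PKNOX families none was called in SW480 in limma. Of 20 chromatin regulators of HOX clusters 1 was called in SW480, *CBX2*, a Polycomb subunit, which fell from 700.2 to 342 (−1.04). In HT29 and HCT116 none of these 20 was called in limma.

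In HCT116, 2 of the 25 tested members rose and none fell. They were *HOXA2*, at chr7:27139973-27142305, and *HOXA3*, at chr7:27145803-27192202, which lie next to each other in GRCh37 on the minus strand. Over all 15404 tested genes 3.17% were called higher and 1.89% lower. No member was called lower in limma, DESeq2 or edgeR. In either direction, 6 of the 25 members had an unadjusted p under 0.05 in limma, as did 4553 of the 15404 genes. The median log2 fold change was 0.15 over the tested members and −0.014 over all tested genes.

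*HOXA3*, which is required for pharyngeal organs such as the thymus, had normalized counts of 51.4, 36.2, 49.0 and 33.3 in WT 4A, 4B, 6A and 6B. In KO 44A, 44B, 47A and 47B it had 202, 199.7, 391 and 428, so that all KO libraries were well above WT and KO 47 highest. The log2 fold change was 2.75 (SE 0.29, adjusted p = 0.000115 in limma), a 7.19-fold higher mean. With the rounds of a clone averaged, the adjusted p was 0.00466 in limma. *HOXA2*, a gene of the hindbrain and branchial arches, had 8.26, 1.86, 1.85 and 1.90 in WT and 15.7, 17.9, 22.5 and 19.98 in KO. It rose by 2.37 (SE 0.45, adjusted p = 0.00553 in limma), at a low level in both genotypes and with WT 4A above the other WT libraries, which had 2 reads each. *HOXA2* passed the filter only through the KO libraries. The size of its change depends on the pseudocount, and it was 1.56 with 5 and 2.75 with 0.1. With the rounds of a clone averaged, its adjusted p was 0.0476 in limma. Without WT clone 6 its change was 1.95 and the adjusted p 0.0621.

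*HOXA5* had 193, 187, 167 and 167 in WT and 326, 295, 299.7 and 355 in KO, without overlap and with little spread. Its log2 fold change of 0.83 (SE 0.14, adjusted p = 0.00258 in limma) stayed under 1, and so did that of *HOXD8* (0.83, SE 0.20, adjusted p = 0.017). *HOXD8* had 154, 142, 115 and 88.5 in WT and 210.3, 201, 254 and 213 in KO. These 2 genes with *HOXA2* and *HOXA3* were the 4 members whose KO libraries were above all WT libraries, where 10.9% of all tested genes showed this. For 0 members were they below all WT libraries, where 9.61% showed it.

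Toward the posterior end of the HOXA cluster differences were small in HCT116. The log2 fold changes of *HOXA7*, *HOXA9*, *HOXA10*, *HOXA11* and *HOXA13* were between −0.18 and 0.31, and none was called. Of the 9 tested HOXB genes none was called, with log2 fold changes from −0.61 for *HOXB9* to 0.27 for *HOXB8*.

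**Figure D3:**
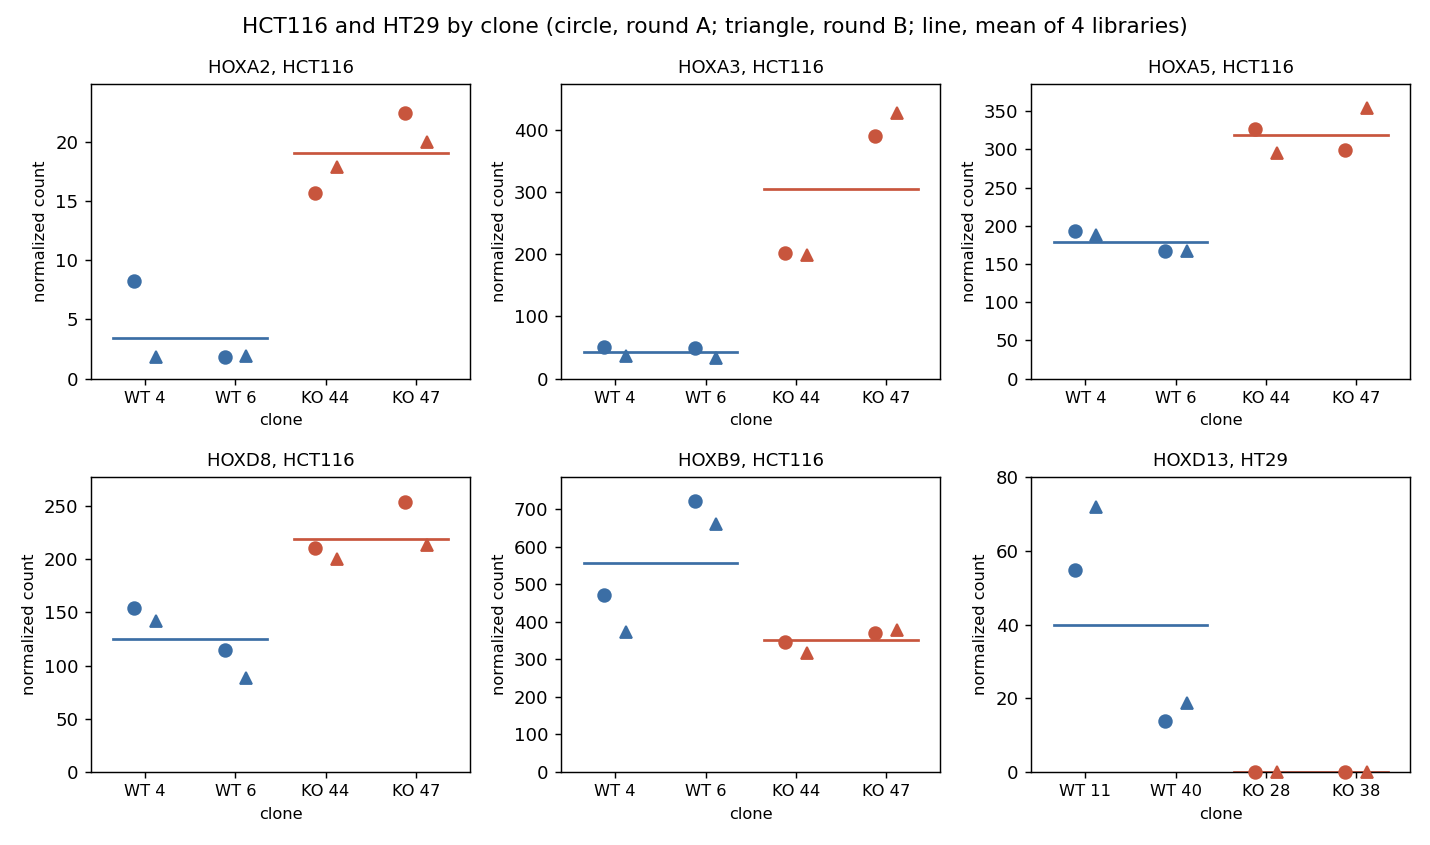
Normalized counts per library (y axis, from 0) of *HOXA2*, *HOXA3*, *HOXA5*, *HOXD8* and *HOXB9* in HCT116 and of *HOXD13* in HT29, by clone; blue is WT, red KO, circles round A, triangles round B, and lines the mean of 4 libraries. KO points lie above all WT points in HCT116 for *HOXA2*, *HOXA3*, *HOXA5* and *HOXD8*, those of *HOXB9* lie low with overlap, and *HOXD13* has 0 in all KO libraries of HT29.

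Near these genes, the antisense RNA *HOXA-AS2* rose from 4.64 to 26.3 in HCT116 (2.28, SE 0.41, adjusted p = 0.00419 in limma), 1 of 9 tested cluster noncoding RNAs, and it passed the filter only through the KO libraries. Its exons overlap those of *HOXA3*, 19.8% of whose exon bases are shared with other genes, and reads of the 2 genes cannot be told apart there without strand. *SKAP2*, a gene flanking the HOXA cluster that codes for an adaptor of Src kinases, rose from 556 to 1797 (1.64, adjusted p = 0.000281 in limma), and the 15 other tested flanking genes were not called. Of the 6 tested cofactors 3 were called in HCT116. *MEIS2* rose from 354 to 892 and *PBX3* from 152 to 296, whereas *MEIS3* fell from 342 to 164.

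In HT29, 1 of the 24 tested members fell, *HOXD13*, and none rose. Here 1.9% of the 14921 tested genes were called higher and 0.402% lower. No member was called higher in limma, DESeq2 or edgeR. An unadjusted p under 0.05 in limma was found for 3 of the 24 members and for 2417 of the 14921 genes. *HOXD13*, the most posterior HOXD gene with roles in the hindgut and digits, lies at chr2:176957449-176960672 in GRCh37. It had 54.7, 72.0, 13.8 and 18.8 in WT 11A, 11B, 40A and 40B and no read in KO 28A, 28B, 38A and 38B. Both WT clones were above both KO clones, and WT 11 was above WT 40. The gene passed the filter only through the WT libraries. A floor of 3 reads per library is a normalized count of 2.85 to 3.89 in the KO libraries. Against it the KO mean was at least 12.6-fold lower, and by the lowest WT library the bound was 3.56-fold. On the log2(value + 1) scale the fold change was −5.05 (SE 0.59, adjusted p = 0.0032 in limma), a size that depends on the pseudocount. With the rounds of a clone averaged, so that 2 clones were compared with 2, no member of HT29 was called in limma, and *HOXD13* had an adjusted p of 0.424. In this setting none of the 14921 genes was called, and 849 had an unadjusted p under 0.05.

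The KO libraries of HT29 were below all WT libraries for 2 members, *HOXD13* and *HOXA2*, where 4.71% of all tested genes showed this, and above for 1, *HOXC6*, where 8.31% did. *HOXA2* had 139, 161, 147 and 168 in WT and 125, 136, 38.9 and 29.8 in KO (−1.19, SE 0.49, adjusted p = 0.277 in limma), with KO 28 just under the WT range and KO 38 far under it. Of the 10 HOXA genes described 9 had a negative log2 fold change, down to −1.19, and none was called. Over the tested members the median was −0.15, against 0.03 over all tested genes. Of the lists, *CALCOCO2* was called among 15 flanking genes (684 to 1654, higher in KO), and none of 7 cofactors and 12 noncoding RNAs was called in limma.

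Whether the KO effect itself differed between lines was tested over 18609 genes, of which 33 were members. It was called for 4 members between HT29 and HCT116, 7 between HT29 and SW480 and 5 between HCT116 and SW480. Over all genes it was called for 5.39%, 12.3% and 10% of them. Of the called members, 2, 6 and 3 were tested in both lines. *HOXA3* had a larger effect in HCT116 than in each other line, with a difference of −3.38 for HT29 minus HCT116 (adjusted p = 3.7e-06 in limma) and of 2.45 for HCT116 minus SW480 (adjusted p = 6.55e-05). For *HOXA2* these differences were −3.56 and 2.89.

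The effect on *HOXB2* in SW480 differed from that in HT29 by 2.97 (adjusted p = 0.00378 in limma) and from that in HCT116 by 2.65 (adjusted p = 0.0108). Between HT29 and SW480 the effect also differed for *HOXB4*, *HOXB5*, *HOXB6* and *HOXB9*, by 1.21 to 1.48, and for *HOXD13*, where the HT29 KO libraries had no read and the size depends on the pseudocount. Rounds of a clone counted as separate libraries in this fit, which was not repeated with the rounds averaged. In HT29 the difference from the WT mean was 0.07 in KO 28 and 1.45 in KO 38 for *HOXB4*, and −0.01 and 0.69 for *HOXB6*. For *HOXB5* it was 0.27 and 0.26, and for *HOXB9* −0.26 and −0.04. For *HOXB8*, which fell in SW480 and had a log2 fold change of −0.26 in HT29, the difference of 1.13 was not called (SE 0.85). This fit has 1 error per gene for all 3 lines, and *HOXB8* ran from 86.3 to 1418 in HCT116 WT. Within HT29 and SW480 the SE of the KO effect was 0.18 and 0.19, so the missing call does not show equal effects. The remaining called differences concerned *HOXC5*, *HOXD11* and *HOXD13*, which were not tested in 1 or both of the lines compared.

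Clones of the same genotype were compared next, with the spread between rounds A and B as error. In HT29, 5 of 24 tested members differed between KO 28 and KO 38, where 12.5% of all tested genes did, and 2 between WT 11 and WT 40, where 7.58% did. In HCT116, 1 of 25 differed between the KO clones, where 3.28% of all genes did, and 4 between the WT clones, where 1.44% did. In SW480, 8 of 32 differed between KO 17 and KO 21, where 4.61% did. Between WT 4 and WT 5 of SW480 no member was called in limma or DESeq2, and 1.97% of all genes were called. Here 9 of the 32 members had an unadjusted p under 0.05 in limma, as did 3294 of the 16325 genes. The median absolute log2 difference between clones was larger for members than for all tested genes in the 6 comparisons, for example 0.47 against 0.24 between the KO clones of SW480. For the WT clones of SW480 it was 0.16 against 0.15.

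*HOXC4* showed the largest difference of any member. It had 9.60, 24.3, 8.89 and 10.0 in the WT libraries of HT29, 1.01 and 1.96 in KO 28 and 177 and 201 in KO 38 (log2 difference 6.28, SE 0.51, adjusted p = 0.000237 in limma). KO 28 had 1 and 2 reads, so that the size depends on the pseudocount, with 4.91 for 5 and 6.97 for 0.1. KO 38 was thus far above and KO 28 below the WT range, and the fold change of KO against WT had an SE of 1.53. *HOXC13*, a regulator of hair keratins at the far end of the same cluster, had 82.6, 62.8, 111 and 106 in WT, 29.2 and 15.7 in KO 28 and 108 and 134 in KO 38 (2.43, SE 0.35). For KO 38 minus KO 28, *HOXA2* was lower, with a log2 difference of −1.90, and *HOXB2* and *HOXB4* were higher, by 1.43 and 1.38. The call of *HOXB2* was lost without KO 28A, KO 28B or KO 38B. The rounds of KO 38 also differed from each other, since *HOXA6* had 60.7 and 6.48, *HOXA7* 39.8 and 6.48, and *HOXB7* 2305 and 5781 in KO 38A and KO 38B. Of the exon bases of *HOXA6* and *HOXA7*, 40.1% and 62.5% overlap other genes, mainly *HOXA-AS3* on the other strand. Without KO 38A the number of members called between these clones was 9.

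Between the WT clones of HT29, *HOXB2* had 289 and 316 in WT 11 and 129 and 118 in WT 40 (−1.29, SE 0.30). *HOXB13* had 133 and 138 in WT 11 and 35.6 and 67.6 in WT 40 (−1.45, SE 0.34). Leaving out any of the 4 WT libraries ended the call of *HOXB2*, and any but WT 40B that of *HOXB13*.

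The WT clones of HCT116 differed at the HOXB cluster. *HOXB8* had 116 and 86.3 in WT 4 and 1241 and 1418 in WT 6, while KO 44 had 466 and 314 and KO 47 had 499 and 519.6. Both KO clones thus lay between the WT clones (log2 difference between WT clones 3.72, SE 0.21, adjusted p = 2.83e-05 in limma). *HOXB4* had 149.5 and 173 in WT 4 and 481 and 414 in WT 6, with 242 to 285 in the KO libraries (1.47, SE 0.17). *HOXB3* and *HOXB6* were likewise higher in WT 6, by 1.23 and 1.18, but leaving out any WT library ended both calls. Depending on which WT clone served as reference, *HOXB8* was called lower in KO against WT 6 alone, with a log2 fold change of −1.59, and higher against WT 4 alone, with one of 2.13. The KO clones of HCT116 differed in *HOXA3*, with KO 47 higher than KO 44 by 1.02 (SE 0.26, adjusted p = 0.0412 in limma), and leaving out any KO library ended this call. Rounds paired the libraries in HCT116, and with the round as a replicate block 2 members differed between the KO clones, *HOXA3*, higher in KO 47 by 1.02, and *HOXC10*, with −1.14.

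**Figure D4:**
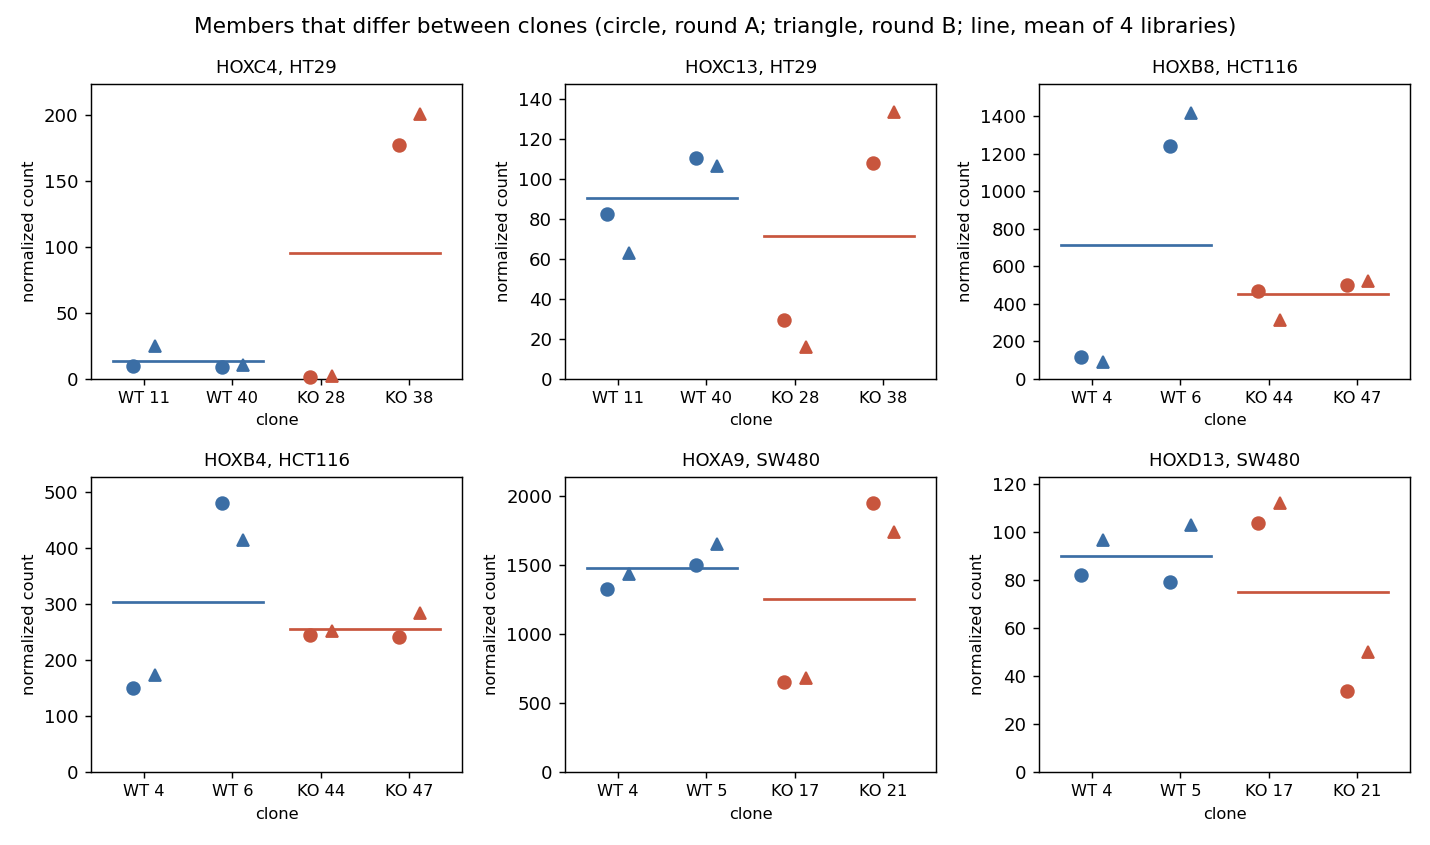
Normalized counts per library (y axis, from 0) of 6 members, by clone; blue is WT, red KO, circles round A, triangles round B, and lines the mean of the 4 libraries of a genotype. In some groups rounds of a clone lie close together while clones of a genotype lie apart, as for *HOXC4* in the KO clones of HT29 and *HOXB8* in the WT clones of HCT116. In other groups the clones overlap, as for *HOXB4* in the KO clones of HCT116.

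In SW480 the KO clones diverged along the HOXA cluster. *HOXA9* had 1322, 1431, 1495 and 1649 in WT, 647 and 678 in KO 17 and 1949.7 and 1737 in KO 21, so that one KO clone was below and the other above every WT library. The difference between the KO clones was 1.47 (SE 0.09, adjusted p = 7.76e-09 in limma). *HOXA5*, *HOXA6*, *HOXA7*, *HOXA10* and *HOXA11* were also higher in KO 21 than in KO 17, by 1.05 to 1.34. The call of *HOXA6* was lost with DESeq2 and without KO 17B, KO 21A or KO 21B, and that of *HOXA7* without KO 17B. With *HOXA9*, none of these 6 genes was called in KO against WT. *HOXD13* had 81.9, 96.5, 79.2 and 103 in WT, 103 and 112 in KO 17 and 33.6 and 49.9 in KO 21 (−1.37, SE 0.24).

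The 4 HOXB genes that fell in SW480 were called lower with either KO clone alone, although not to the same extent. *HOXB2* differed from the WT mean by −3.34 in KO 17 and −2.29 in KO 21, and it was itself called between these clones (1.05, SE 0.14, adjusted p = 4.87e-05 in limma), except without KO 21B. *HOXB8* differed by −1.76 and −1.02, *HOXB9* by −1.63 and −1.09 and *HOXB5* by −1.27 and −1.01. With KO 17 alone against WT, 9 members were called lower, among them *HOXA7* and *HOXA9*. With KO 21 alone 6 were, and these lacked *HOXD9* and included *HOXB4* and *HOXD13*.

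When the variation of log2 values within a line was divided into parts, the part between clones of a genotype was 44.9% (HT29), 46.8% (HCT116) and 44.8% (SW480) for the median member. Genotypes made up 21.0%, 13.9% and 34.7%. Over all tested genes the medians were 40.7%, 30.3% and 21.0% between clones and 17.0%, 24.5% and 53.0% between genotypes. These are plain sums of squares without correction for degrees of freedom, and noise alone would give clones a larger part than genotypes. The parts can thus be compared between members and all genes, but not with each other.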

How the data were processed

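RNA of 12 clones of HT29, HCT116 and SW480 was sequenced in 2 rounds as TruSeq libraries, which keep no strand. Per the labels, reads were aligned to GRCh37 with STAR 2.7.5b and counted with featureCounts 2.0.1. The authors deposited for each library a signal per gene, the count divided by a DESeq2 size factor. Dividing by the value of 1 read recovered whole reads for 100% of values, within 0.001 reads. Symbols were matched for 95.8% of identifiers. The authors also deposited 3 tables with their own comparisons, which were not used.

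limma 3.58.1 with a trend and robust variances was run on log2(value + 1) of all genes that passed the filter, within each line, between clones and between lines. Because the values are signal, this replaced a count test, and DESeq2 1.42.0 and edgeR 4.0.16 were run on recovered reads as alternatives. R 4.3.3, Python 3.11.15 and matplotlib 3.10.9 were used. Differences of rounds A and B correlated across genes between clones at 0.182 to 0.374 in HCT116 (6 of 6 pairs over 0.1), and at over 0.1 for 2 of 6 pairs in HT29 and 1 of 6 in SW480. The labels number A and B as replicates, and p-values measure the spread over these libraries, which share clones and may be technical in part. Floors of 3 reads cover counting error only. The fit was tested on simulated data with no difference between clones, so that this test says nothing about genes that differ between clones.

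The members and lists were chosen with earlier results of these data known. Values per library are given for members called in KO against WT, the highest member of each cluster and the 2 largest called differences between clones; others shown were chosen after their values were seen. Lists covered cofactors, caudal and even-skipped genes, noncoding RNAs, chromatin regulators, flanking genes and markers. *ATP5G2*, *ATP5G3*, *KIAA1715* and *PECAM1* had no match in the files. Of the genes found by the rule and of the cofactors, 1 each stayed in every fit but is not reported here.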

Additional observations from a re-analysis of the deposited data

Results flagged for a closer look

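In 162 groups of 4 libraries of a member, the library farthest from the rest was compared with Dixon's critical value at the 95% level, and 9 stood apart, where chance gives about 1 in 20, or 8.1. Of these, 4 were in the KO libraries of HT29. *HOXA4* had 25.1 in KO 28A, against 7.59 to 7.83 in the others, *HOXA6* had 6.48 in KO 38B, against 60.7 to 88.1, *HOXA11* had 669 in KO 38A, against 1249.8 to 1316, and *HOXB7* had 5781 in KO 38B, against 1964 to 2305. *HOXC4* had 24.3 in WT 11B of HT29, against 8.89 to 10.0. *HOXA2* had 8.26 in WT 4A of HCT116, against 1.85 to 1.90, and 17.2 in WT 4A of SW480, against 32.3 to 34.0. In SW480 *HOXB4* had 358 in WT 4B, against 419 to 432, and *HOXD9* had 123 in KO 21A, against 78.0 to 83.7.

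The KO effect differed between lines for 16 pairs of a member and 2 lines, given here as the first line minus the second with the adjusted p of limma. The rounds of a clone count as separate libraries in these tests. Between HT29 and HCT116 the differences were −3.56 for *HOXA2* (0.000518), −3.38 for *HOXA3* (3.7e-06), −1.54 for *HOXD11* (0.0384) and −5.71 for *HOXD13* (1.5e-05). Between HT29 and SW480 they were 2.97 for *HOXB2* (0.00378), 1.48 for *HOXB4* (0.0338), 1.41 for *HOXB5* (0.00225), 1.21 for *HOXB6* (0.0348), 1.21 for *HOXB9* (0.00261), 2.30 for *HOXC5* (0.0112) and −4.62 for *HOXD13* (5.41e-05). Between HCT116 and SW480 they were 2.89 for *HOXA2* (0.0017), 2.45 for *HOXA3* (6.55e-05), 2.65 for *HOXB2* (0.0108), 2.06 for *HOXC5* (0.0266) and 1.41 for *HOXD11* (0.0391). *HOXD13* had no read in the HT29 KO libraries and at most 1.97 in HCT116, where it was not tested, so that its differences depend on the pseudocount. With 5 and 0.1 they were −3.11 and −10.31 for HT29 minus HCT116 and −2.53 and −7.89 for HT29 minus SW480. *HOXD11* had at most 5.35 in HCT116 and no read in HT29.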

How the results depend on the processing

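Counts of called members stayed within 1.5 times under 144 of 168 alternative settings. No called result that was followed by name changed sign. Results not called were not followed, such as the KO effect on *HOXB8* in HCT116, which was −1.59 without WT 4 and 2.13 without WT 6. With the rounds of a clone averaged, HT29 had 0 called members. Without 1 library or clone, the count in KO against WT ran from 1 to 4 in HT29 (4 without KO 28), from 2 to 5 in HCT116 (5 without WT 4, 4 without KO 47) and from 4 to 9 in SW480 (9 without KO 21). Between clones it ran from 4 to 9 for the KO clones of HT29, from 0 to 1 for its WT clones and was 2 for the WT clones of HCT116 throughout. For the KO clones of HCT116 it was 0 without any 1 library and 2 with the round as a replicate block, which changed no other count by over 1.5 times. The number of differences between HCT116 and SW480 was 3 with no filter on low values and ran from 3 to 6 without 1 library (3 without WT 4B or KO 47A of HCT116 or KO 17A of SW480). Leaving out libraries of 1 clone was chosen after seeing the data, and a lone library was then assumed to vary like the others. The call of *HOXD9* in SW480 was lost in 7 settings, and those of the differences in *HOXB4* and *HOXB6* between HT29 and SW480 in 9 and 10. The difference in *HOXD11* was lost in 17 settings between HT29 and HCT116 and in 15 between HCT116 and SW480, and that in *HOXC5* between HCT116 and SW480 in 9. The causes were not tested. Genes under 3 reads are beyond the depth of these libraries.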
